A study of Mus musculus with 23 samples.

Results

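The miR-148 and miR-152 family of microRNAs (miRNAs) was followed in mouse liver as 6 mature miRNAs, which are the 3p and the 5p arm of 3 hairpins: mmu-miR-148a-3p, mmu-miR-148a-5p, mmu-miR-148b-3p, mmu-miR-148b-5p, mmu-miR-152-3p and mmu-miR-152-5p. They were chosen by name as a family and not by their values, though earlier results of these data were known. All 6 were found among the 1218 mature miRNAs listed in the count table, and all 6 were among the 386 that passed the filter on low counts and were tested. The study sequenced small RNA from the liver of 23 male C57bl/6J mice of the F3 generation, to see how a lineage raised on omega 3 fatty acids met an obesogenic diet. The reference group (n = 8) came from the lineage bred for 3 generations on a growing diet with 1% of high oleic sunflower oil. It then received a low-fat diet with 10% of its energy as fat for 17 weeks. HFoleic (n = 8) came from that same lineage, and was fed for 17 weeks on a diet rich in fat and sucrose, in which fat gave 45% of the energy. HFepa (n = 7) received that high-fat diet for 17 weeks too, but its lineage had been bred on 1% of a fish oil rich in eicosapentaenoic acid (EPA), an omega 3 fatty acid. The study has no low-fat group of the EPA lineage, so HFepa vs. reference changes diet and lineage together, while HFoleic vs. reference changes the diet and HFepa vs. HFoleic the lineage. The labels give each library its own sample number, and it was taken as 1 mouse.

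A miRNA is cut from a hairpin transcript as a duplex of a 5p and a 3p arm, one of which is usually kept in the Argonaute complex while the other is mostly degraded. The kept arm pairs through its seed, bases 2 to 8, with sites in messenger RNAs and lowers their stability and translation. miR-148a is among the most abundant miRNAs of hepatocytes. The low-density lipoprotein receptor and the cholesterol exporter ABCA1 are known targets of miR-148a, DNA methyltransferases are known targets of the wider family, and the gene of miR-148a is known to be driven by the sterol-responsive factor SREBP1.

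The sequences are shown because they define the family and separate its members. They are the RefSeq mature miRNAs on GRCm38.p6, written 5′ to 3′, and the capitals mark the seed.
mmu-miR-148a-3p: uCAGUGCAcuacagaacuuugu
mmu-miR-148b-3p: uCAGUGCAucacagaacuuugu
mmu-miR-152-3p: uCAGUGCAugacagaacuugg
mmu-miR-148a-5p: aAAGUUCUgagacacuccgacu
mmu-miR-148b-5p: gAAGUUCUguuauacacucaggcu
mmu-miR-152-5p: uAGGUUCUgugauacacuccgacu

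The 3 members of the 3p arm shared the seed CAGUGCA. No other of the 1045 listed miRNAs with a RefSeq sequence had it. Counted from the 5′ end, miR-148a-3p and miR-148b-3p differed at 2 of 22 bases, positions 9 and 10. miR-148b-3p and miR-152-3p differed at 2 of the first 21 bases, positions 10 and 20, and miR-148a-3p and miR-152-3p at 3 of them. All differences among the 3p arms thus lay outside the seed. The authors' alignment allowed mismatches and the sources used here do not say how a read that matched more than 1 member was counted, so the split of counts among the 3p arms is uncertain to that extent. The 5p arms fell into 2 seed groups. Among the same 1045 miRNAs, only miR-148a-5p and miR-148b-5p had AAGUUCU, and miR-152-5p alone had AGGUUCU.

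Among the 1045 listed miRNAs with a RefSeq sequence, the same 7 bases CAGUGCA stood at another place in 10 outside the family. In 3 of these, shown here because they begin with those bases, the letters start at base 1, so that the seed is shifted by 1 base. The capitals mark CAGUGCA.
mmu-miR-130a-3p: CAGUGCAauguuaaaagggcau
mmu-miR-130b-3p: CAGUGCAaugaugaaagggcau
mmu-miR-301a-3p: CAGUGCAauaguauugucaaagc

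The 3 hairpins come from separate chromosomes. On GRCm38.p6, with the GENCODE M21 annotation, Mir148a lies at chr6:51269812-51269910 on the minus strand, overlaps no other gene, and is 162760 bp from the nearest protein-coding gene, Nfe2l3. Mir148b lies at chr15:103285125-103285221 on the plus strand, in an intron of Copz1. Mir152 lies at chr11:96850393-96850465 on the plus strand, in an intron of Copz2. Both host genes encode zeta subunits of the COPI vesicle coat and are transcribed in the same direction as the miRNA inside them.

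The libraries held between 3725432 and 8139344 miRNA counts, with medians of 5981328 for reference, 5408676 for HFoleic and 4400595 for HFepa. Levels are given as CPM, which are counts scaled to a common library total, here with TMM factors that align the bulk of the miRNAs between libraries. Reference library 3 stood apart. Its 3 hepatocyte miRNAs summed to 112869 CPM against 206724 to 265683 CPM in the other 22 libraries. The sums of its stellate cell and leukocyte miRNAs were the highest of all libraries. Those of its endothelial miRNAs (13882 against 16582 to 26003 CPM) and red blood cell miRNAs (3461 against 3495 to 8488 CPM) were the lowest. Its TMM factor was 1.26 against 0.930 to 1.13. Reference library 4 had the most miR-133a-3p (205 CPM, a muscle miRNA) and miR-215-5p (1885 CPM, a gut miRNA). The other miRNAs of the gut list were highest in library 3 instead. They were miR-200b-3p (435 CPM), miR-200c-3p (12.9 CPM), miR-141-3p (122 CPM) and miR-429-3p (277 CPM). Reference library 5 had 2019 CPM of the islet miRNA miR-375-3p, against a median of 15.6 CPM over all libraries, while the acinar miRNAs miR-216a-5p, miR-216b-5p and miR-217-5p were at most 0.893 CPM in any library. Where leaving out libraries 3, 4 and 5 moved a value of a member well away from that over all libraries, both values are given. The labels number the libraries 1 to 8 in the reference group, 9 to 15 and 23 in HFoleic, and 16 to 22 in HFepa, and name no batch.

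The family was dominated by miR-148a-3p. It was the 3rd or 4th most abundant of all listed miRNAs in every library. It made up 97.9 to 99.1% of the counts that carried the shared 3p seed, against 0.828 to 1.92% for miR-148b-3p and 0.0902 to 0.209% for miR-152-3p. Together the 6 members took 8.97% ± 0.314 (SD, n = 8) of all miRNA counts in the reference group, 7.84% ± 1.17 (SD, n = 8) in HFoleic and 7.20% ± 0.706 (SD, n = 7) in HFepa. Each read covers a whole mature miRNA, so no scaling by length was used.

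The order of the 6 members was identical in 23 of 23 libraries. After miR-148a-3p came miR-148b-3p, miR-148a-5p, miR-152-3p, miR-152-5p and miR-148b-5p, by their CPM in each library. In the reference group their mean levels were 85571, 884, 493, 89.9, 67.7 and 22.9 CPM. The nearest neighbours were miR-152-3p and miR-152-5p, which stood at 82.9 to 97.1 and 54.4 to 78.5 CPM in that group and did not overlap there. Over all groups the highest miR-152-5p, 89.7 CPM in HFoleic, passed the lowest miR-152-3p, 80.9 CPM in HFepa, although within each library the 3p arm stayed above the 5p arm.

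**Figure D1:**
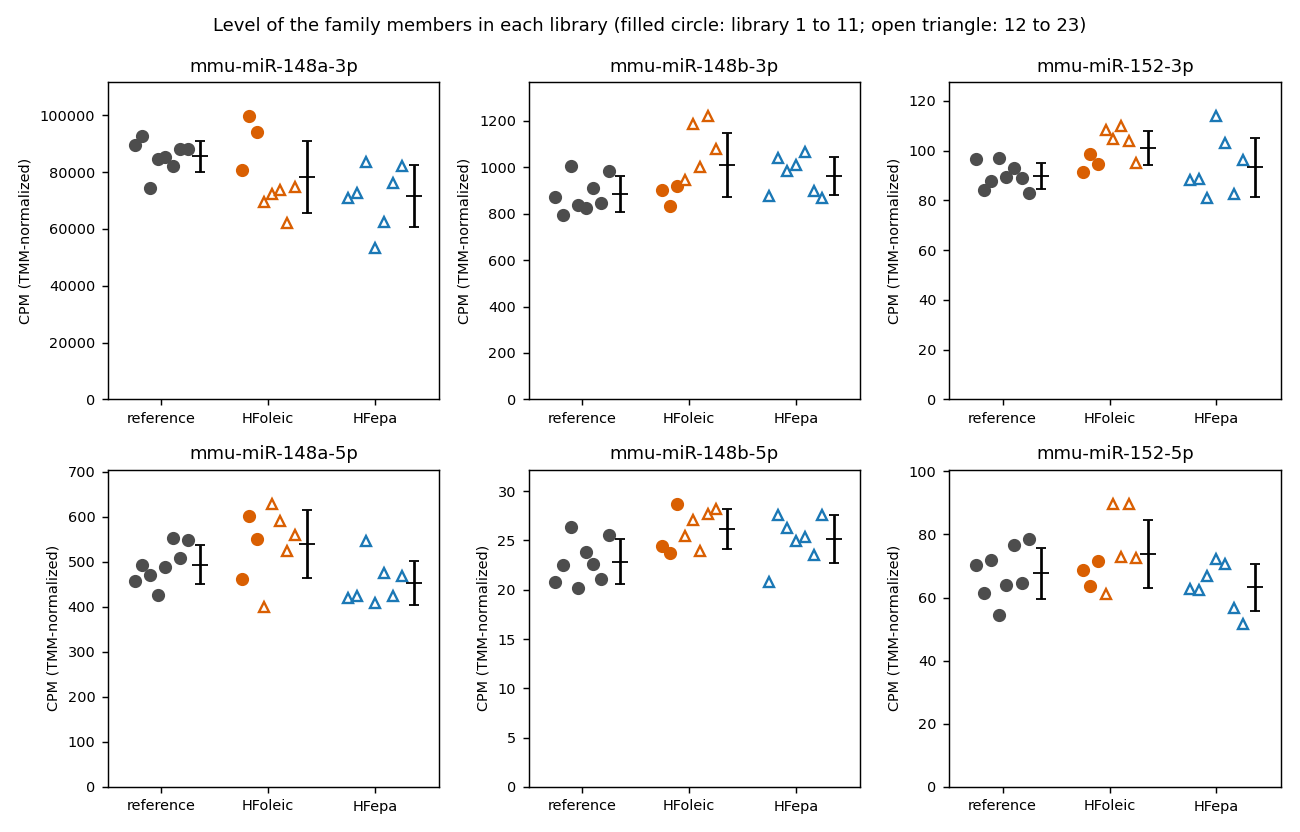
Each point is 1 library and each panel 1 member, with its level in TMM-scaled CPM on the vertical axis from 0 and the 3 groups on the horizontal axis. Filled circles are libraries 1 to 11, open triangles libraries 12 to 23, and the bars give the mean and SD. For miR-148a-3p the 3 filled HFoleic points stand above the 5 open ones, and the ranges of the 3 groups overlap for every member.

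No member was called in any of the 3 comparisons. A miRNA was called when its adjusted p was under 0.05 over all 386 tested miRNAs (quasi-likelihood fit in edgeR, Benjamini-Hochberg) and its log2 fold change was over 0.25 in either direction. In HFoleic vs. reference 0 of 6 members were called, where 12.4% of all tested miRNAs were. In HFepa vs. reference it was 0 of 6 against 15.8%, and in HFepa vs. HFoleic 0 of 6 against 0%. At an unadjusted p under 0.05 the same test gave 3, 1 and 2 of the 6 members, against 28.5%, 28.5% and 5.70% of all tested miRNAs. The CPM ranges of the groups overlapped for all 6 members in each comparison. Among all tested miRNAs the ranges did not overlap for 0%, 4.66% and 0% in the same order. DESeq2 called 0 of 6 members in each comparison as well.

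The members did not share 1 direction against the reference group. The estimated log2 fold change was below 0 for 1 of 6 members in HFoleic vs. reference and for 3 of 6 in HFepa vs. reference. Its median over the members was 0.15 and -0.02, against -0.00 and -0.06 over all tested miRNAs. In HFepa vs. HFoleic it was below 0 for 6 of 6 members, with a median of -0.12 against -0.02 over all tested miRNAs, of which 53.4% were below 0. The comparisons share groups, so their values are not independent of each other.

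**Figure D2:**
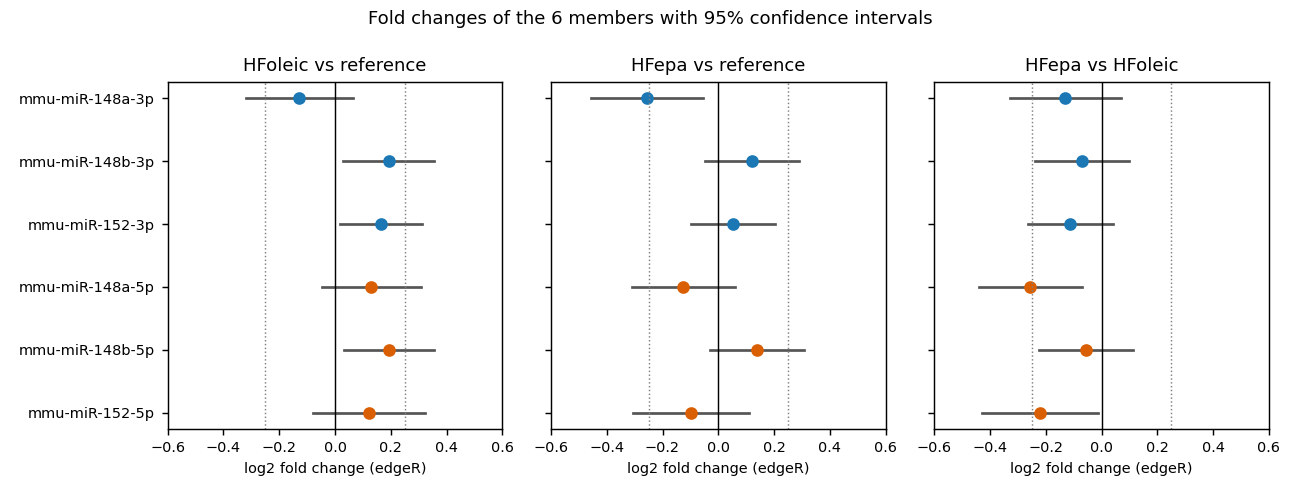
The log2 fold change of each member from edgeR is shown for the 3 comparisons, with its 95% confidence interval as a line. Blue points are 3p arms, orange points 5p arms, and dotted lines mark 0.25 in either direction. The estimate for miR-148a-3p lies at -0.26 in HFepa vs. reference and that for miR-148a-5p at -0.26 in HFepa vs. HFoleic, and all other estimates are within 0.25 of 0.

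miR-148a-3p, the abundant guide arm of the family, was lower on average in both high-fat groups, without passing the test. Its level was 74330, 86622 and 92609 CPM (lowest, median and highest) in the reference group, 62149, 74190 and 99648 CPM in HFoleic, and 53246, 72656 and 83513 CPM in HFepa. All 7 HFepa libraries lay below the reference median and 4 of them below the lowest reference library. In HFoleic 4 of 8 libraries lay below the lowest reference library and 2 above the highest, so this group spread to both sides. That lowest reference library was library 3, which stood apart, and library 6 came next at 82295 CPM.

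On average miR-148a-3p stood at 85571 CPM (SD 5552, n = 8) in reference livers, at 78345 CPM (SD 12645, n = 8) in HFoleic livers and at 71614 CPM (SD 10804, n = 7) in HFepa livers. Its log2 fold change in HFepa vs. reference was -0.26 (standard error 0.097, 95% interval -0.46 to -0.06, adjusted p = 0.0679, quasi-likelihood fit in edgeR, Benjamini-Hochberg). In liver tissue, fewer cells of a type and less of the miRNA in each cell cannot be told apart. In HFoleic vs. reference it was -0.13 (95% interval -0.32 to 0.07, adjusted p = 0.377, edgeR likewise), and -0.20 without reference libraries 3, 4 and 5. In HFepa vs. HFoleic it was -0.13 (95% interval -0.33 to 0.07, adjusted p = 0.937, edgeR likewise). The unadjusted p in HFepa vs. reference was 0.0144 (edgeR), so this difference passed alone but not after adjustment over the 386 miRNAs, and those in the other comparisons did not pass either way.

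The call on miR-148a-3p in HFepa vs. reference rested on the scaling. With the library total alone in place of TMM, the log2 fold change was -0.32 and the adjusted p 0.0100 (edgeR), so that 1 of 6 members was called. With limma-voom the adjusted p was 0.0304, but the log2 fold change, -0.250, fell just short of the threshold. Library 3 was the lowest reference library in TMM-scaled CPM, but the highest of its group as a share of its own counts. Without reference libraries 3, 4 and 5, an alternative chosen after seeing the data, the log2 fold change was -0.33 and the adjusted p 0.0861 (edgeR).

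The share of miR-148a-3p in the library counts followed the library number. It ran from 8.37 to 9.34% in the reference group and from 6.01 to 7.91% in HFepa, with no overlap, which held for 3.37% of all tested miRNAs in that direction. Within HFoleic it ran from 8.26 to 9.54% in libraries 9 to 11 and from 6.05 to 7.39% in libraries 12 to 15 and 23. The 11 libraries numbered 1 to 11 therefore all lay above the 12 libraries numbered 12 to 23, at 8.26% or more against 7.91% or less. Of all tested miRNAs, 2.33% were lower without overlap in libraries 12 to 23. All HFepa numbers are above 11 and all reference numbers below 12, so the library number and the group cannot be told apart in HFepa vs. reference.

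**Figure D3:**
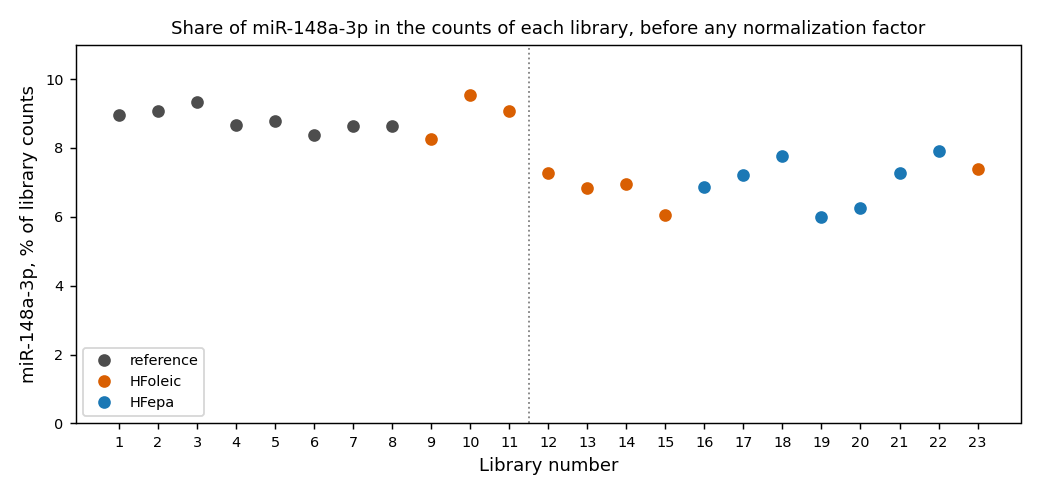
The share of miR-148a-3p in the miRNA counts of each library, in percent and before any normalization factor, is plotted against the library number. Colours give the groups and the dotted line separates libraries 1 to 11 from 12 to 23. The 3 HFoleic libraries left of the line lie at 8.26% or more and the 5 right of it at 7.39% or less.

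Within 1 range of library numbers the groups were closer in miR-148a-3p. The split at number 11 came from earlier results, and it separates the HFoleic libraries high in miR-148a-3p from the low ones. Closer values within each range follow in part from that split, so the values below are no independent check. Among libraries 1 to 11, which hold 8 reference and 3 HFoleic libraries, HFoleic stood 0.10 above reference on the log2 scale (standard error 0.084, adjusted p = 0.703, edgeR). Among libraries 12 to 23, with 5 HFoleic and 7 HFepa libraries, that in HFepa vs. HFoleic was 0.03 (standard error 0.10, adjusted p = 0.965, edgeR). Both had the opposite sign to the value over all libraries. HFoleic itself held 91476 ± 9761 CPM (SD, n = 3) in libraries 9 to 11 and 70466 ± 5029 CPM (SD, n = 5) in libraries 12 to 15 and 23. In a fit of all libraries with a term for libraries 1 to 11 against 12 to 23, HFepa vs. reference turned from -0.26 to 0.12 (standard error 0.14, adjusted p = 0.861, edgeR). Since no reference library lies above number 11 and no HFepa library below 12, that value rests on the HFoleic libraries, the only ones in both ranges.

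miR-148b-3p, the second guide arm with the shared seed, was higher on average in both high-fat groups and did not pass the test. Its level was 795, 858 and 1005 CPM (lowest, median and highest) in the reference group, 833, 972 and 1219 CPM in HFoleic, and 865, 982 and 1066 CPM in HFepa. In HFoleic 3 of 8 libraries lay above the highest reference library, and in HFepa 3 of 7 did. miR-148b-3p had a log2 fold change of 0.19 in HFoleic vs. reference (standard error 0.079, adjusted p = 0.116), of 0.12 when HFepa was set against reference (adjusted p = 0.351) and of -0.07 for HFepa vs. HFoleic (adjusted p = 0.968, quasi-likelihood fit in edgeR for each, Benjamini-Hochberg). Without HFoleic library 10 the first of these was 0.26 with an adjusted p of 0.0314 (edgeR), and miR-148b-3p was then called.

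The HFoleic group was uneven in miR-148b-3p as well, in the other direction. Libraries 9 to 11 held 885 ± 46.3 CPM (SD, n = 3) and libraries 12 to 15 and 23 held 1085 ± 118 CPM (SD, n = 5). Among libraries 1 to 11 alone, HFoleic stood 0.01 above reference on the log2 scale (standard error 0.081, adjusted p = 0.984, edgeR). miR-148a-3p and miR-148b-3p thus differed in opposite directions between the 2 parts of the HFoleic group.

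miR-152-3p, the third guide arm, was the least abundant one. Its level was 82.9, 89.1 and 97.1 CPM (lowest, median and highest) in the reference group, 91.5, 101 and 110 CPM in HFoleic, and 80.9, 88.5 and 114 CPM in HFepa. All 8 HFoleic libraries lay above the reference median and 5 of them above the highest reference library. HFepa reached both below and above the reference group. miR-152-3p had a log2 fold change of 0.16 in HFoleic vs. reference (standard error 0.071, adjusted p = 0.131), of 0.05 when HFepa was set against reference (adjusted p = 0.718) and of -0.11 for HFepa vs. HFoleic (adjusted p = 0.901, quasi-likelihood fit in edgeR for each, Benjamini-Hochberg). Among libraries 1 to 11 alone, the HFoleic vs. reference value was 0.09 (adjusted p = 0.723, edgeR).

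Because miR-148a-3p outweighed the other members, the sum over the shared seed moved with it. The 3p arms together reached 86545 CPM (SD 5503, n = 8) in reference livers, 79456 CPM (SD 12535, n = 8) in HFoleic livers and 72669 CPM (SD 10750, n = 7) in HFepa livers. miR-148b-3p and miR-152-3p summed to 974 ± 75.5, 1111 ± 141 and 1055 ± 87.5 CPM in the same groups. The count of miR-148a-3p was 97.7 ± 12.8 times that of miR-148b-3p in the reference group, 80.0 ± 22.5 times in HFoleic and 75.4 ± 15.5 times in HFepa. In HFoleic this ratio was 104 ± 15.2 in libraries 9 to 11 and 65.7 ± 9.76 in libraries 12 to 15 and 23, so it too split by library number. Sums and ratios over members were not tested.

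miR-148a-5p, the passenger arm of the abundant hairpin, had the lowest unadjusted p of the family in any comparison. Its level was 426, 491 and 554 CPM (lowest, median and highest) in the reference group, 401, 556 and 629 CPM in HFoleic, and 410, 425 and 547 CPM in HFepa. All 7 HFepa libraries lay below the HFoleic median, although the lowest library of all was an HFoleic one. The log2 fold change in HFepa vs. HFoleic was -0.26 (standard error 0.090, 95% interval -0.44 to -0.07, adjusted p = 0.525, quasi-likelihood fit in edgeR, Benjamini-Hochberg). Against the reference group it was 0.13 for HFoleic (adjusted p = 0.328) and -0.13 for HFepa (adjusted p = 0.386, edgeR likewise), so the reference group lay between the others. Without reference libraries 3, 4 and 5 these values were 0.04 and -0.21. Among libraries 12 to 23 alone, HFepa differed from HFoleic by a similar -0.25 (standard error 0.11, adjusted p = 0.819, edgeR).

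miR-152-5p had a pattern like that of miR-148a-5p. Its level was 54.4, 67.4 and 78.5 CPM (lowest, median and highest) in the reference group, 61.2, 72.1 and 89.7 CPM in HFoleic, and 51.5, 62.6 and 72.1 CPM in HFepa. All 7 HFepa libraries lay below the HFoleic median and 2 below the lowest HFoleic library. The log2 fold change in HFepa vs. HFoleic was -0.22 (standard error 0.10, adjusted p = 0.744, quasi-likelihood fit in edgeR, Benjamini-Hochberg), and -0.28 (adjusted p = 0.767, edgeR) among libraries 12 to 23 alone. Against the reference group it was 0.12 for HFoleic (adjusted p = 0.413) and -0.10 for HFepa (adjusted p = 0.589, edgeR likewise). Leaving out reference libraries 3, 4 and 5 gave 0.03 and -0.18 for miR-152-5p.

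miR-148b-5p was the rarest member. Its level was 20.1, 22.5 and 26.4 CPM (lowest, median and highest) in the reference group, 23.7, 26.3 and 28.7 CPM in HFoleic, and 20.8, 25.4 and 27.6 CPM in HFepa. All 8 HFoleic libraries lay above the reference median and 4 above the highest reference library. miR-148b-5p had a log2 fold change of 0.19 in HFoleic vs. reference (standard error 0.079, adjusted p = 0.116), of 0.14 when HFepa was set against reference (adjusted p = 0.287) and of -0.06 for HFepa vs. HFoleic (adjusted p = 0.968, quasi-likelihood fit in edgeR for each, Benjamini-Hochberg). Among libraries 1 to 11 alone, the first value was 0.17 (standard error 0.11, adjusted p = 0.662, edgeR). With limma-voom over all libraries its adjusted p was 0.0341, but the log2 fold change, 0.247, fell just short of the threshold.

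The 3 hairpins differed widely in how unequal their arms were. In the reference group the 3p arm of miR-148a had 174 ± 18.2 times the count of its 5p arm (SD, n = 8), that of miR-148b 38.8 ± 2.73 times and that of miR-152 1.35 ± 0.212 times. The 5p arm thus held 0.575% of the miR-148a hairpin counts, 2.52% of those of miR-148b and 42.9% of those of miR-152. By the size of the log2 ratio over all libraries, whichever arm was higher, miR-148a was 20th, miR-148b 32nd and miR-152 97th of the 100 hairpins with both arms tested. miR-152 was therefore among the most even of them.

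Whether the ratio of the arms moved between the groups was tested with limma on the log2 ratio of the counts, which needs no scaling between libraries. Of the 3 hairpins, 0 were called in each comparison, where 15% of the 100 hairpins were called in HFoleic vs. reference, 19% in HFepa vs. reference and 0% between the high-fat groups. At an unadjusted p under 0.05 limma gave 1, 0 and 0 of the 3 hairpins, and 30, 32 and 6 of the 100.

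The ratio of miR-148a was lowest in HFoleic. It was 149, 174 and 198 (lowest, median and highest) in the reference group, 115, 149 and 175 in HFoleic, and 130, 170 and 180 in HFepa. The log2 difference in HFoleic vs. reference was -0.26 (standard error 0.11, 95% interval -0.49 to -0.04, adjusted p = 0.0966, limma with Benjamini-Hochberg adjustment). The other comparisons gave -0.14 for HFepa vs. reference (adjusted p = 0.409) and 0.12 for HFepa vs. HFoleic (adjusted p = 0.811, limma likewise). The low HFoleic ratios came from libraries 13 to 15 and 23, and among libraries 1 to 11 alone the difference was -0.03 (standard error 0.10, adjusted p = 0.932, limma).

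The ratio of miR-148b was close in the 3 groups, with means of 38.8, 38.6 and 38.4 and a range of 31.3 to 44.0 over all libraries. Its log2 differences were -0.01 (95% interval -0.17 to 0.15), -0.02 (-0.19 to 0.15) and -0.01 (-0.18 to 0.16) in the 3 comparisons, in the order used above. The ratio of miR-152 had means of 1.35, 1.39 and 1.48 and a range of 1.06 to 1.87. Its log2 differences were 0.05 (95% interval -0.18 to 0.27), 0.14 (-0.09 to 0.37) and 0.10 (-0.13 to 0.33), and the first and second were 0.11 and 0.21 without reference libraries 3, 4 and 5.

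**Figure D4:**
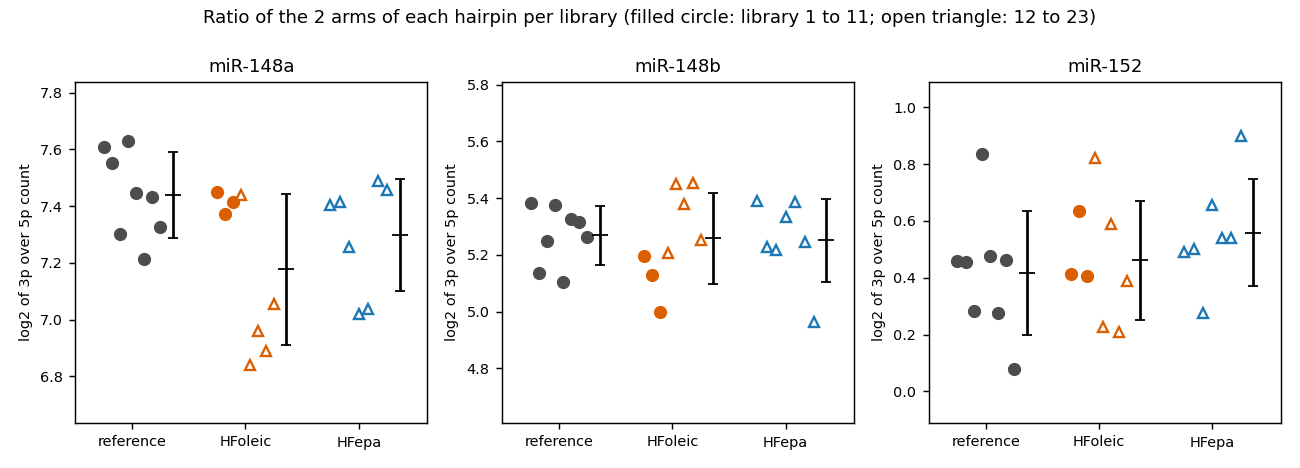
The log2 ratio of the 3p to the 5p count of each hairpin is plotted per library, on axes that span the same number of log2 units in each panel. Filled circles are libraries 1 to 11, open triangles libraries 12 to 23, and the bars give the mean and SD of each group. For miR-148a 4 of the 5 open HFoleic points lie below all reference points.

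The members did not all vary together across the libraries. Over the 23 libraries the Pearson correlation of log2 CPM between miR-148a-3p and miR-148b-3p was -0.67, and that between miR-148a-3p and miR-152-3p was -0.54, although all 3 have the same seed. With its own passenger arm, miR-148a-3p had a correlation of 0.36. miR-148b-3p and miR-152-5p, from separate chromosomes, had the highest correlation within the family, 0.73, with 0.77 within libraries 1 to 11 and 0.92 within libraries 12 to 23. The arms of miR-148b followed with 0.66. These are descriptions over libraries that share a normalization, a diet group and a range of library numbers. Within libraries 1 to 11 and within libraries 12 to 23, miR-148a-3p and miR-148b-3p had correlations of -0.52 and -0.40, and miR-148a-3p and miR-152-3p of 0.27 and -0.65. The latter pair thus had no single direction.

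Of the other 385 tested miRNAs, miR-92a-3p had the pattern most like that of miR-148a-3p, with a correlation of 0.90 over the 23 libraries and of 0.75 and 0.83 within libraries 1 to 11 and 12 to 23. miR-19b-3p (0.82), let-7f-5p (0.78), miR-320-3p (0.78) and miR-1843b-3p (0.76) followed. Within libraries 1 to 11 miR-19b-3p had 0.34, and within libraries 12 to 23 let-7f-5p had 0.40 and miR-1843b-3p 0.29. The lowest correlations with miR-148a-3p were those of miR-28c (-0.71), miR-5099 (-0.70) and miR-205-5p (-0.69). Within libraries 1 to 11 and 12 to 23 miR-28c had -0.44 and -0.50 and miR-5099 -0.23 and -0.12, whereas miR-205-5p had -0.90 and -0.66. miR-28c and miR-205-5p were rare, with means of 1.77 and 5.71 CPM over the 23 libraries. For miR-148a-5p the most similar patterns were those of miR-340-5p (0.71), miR-664-3p (0.59), miR-152-5p (0.57), miR-378c (0.55) and let-7b-3p (0.53).

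**Figure D5:**
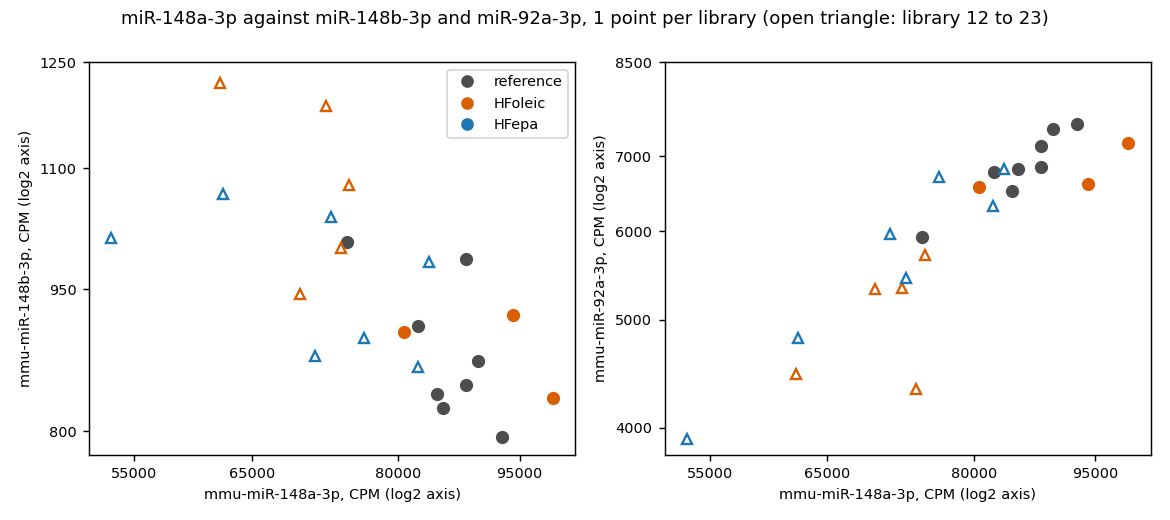
Each point is 1 library, with miR-148a-3p in CPM on the horizontal axis and miR-148b-3p (left) or miR-92a-3p (right) on the vertical axis, all on log2 axes. Colours give the groups, filled circles libraries 1 to 11 and open triangles libraries 12 to 23. miR-92a-3p rises with miR-148a-3p (correlation 0.90), whereas miR-148b-3p is lower where miR-148a-3p is higher (-0.67).

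Other miRNAs known to act on cholesterol, lipoproteins and fatty acids were read from a list of 16, of which 15 were tested. In HFoleic vs. reference 1 was called higher and 1 lower, in HFepa vs. reference 0 higher and 1 lower, and in HFepa vs. HFoleic 0. These are 2, 1 and 0 of 15, beside 12.4%, 15.8% and 0% of all tested miRNAs. The median log2 fold change over the 15 was 0.02, -0.00 and 0.00, against -0.00, -0.06 and -0.02 over all tested miRNAs. miR-33-5p, which lies in an intron of the SREBP2 gene and targets cholesterol exporters, was at 7.42 CPM (SD 2.04, n = 8) in reference livers and 11.1 CPM (SD 1.61, n = 8) in HFoleic livers, a log2 fold change of 0.58 (adjusted p = 0.0278, quasi-likelihood fit in edgeR, Benjamini-Hochberg). Its call was lost without reference library 5, with 0.46 and an adjusted p of 0.0631 (edgeR), and without HFoleic library 14 or 23. Of the other settings tried, it kept its call with DESeq2, upper-quartile factors and limma-voom, and lost it in the rest. In HFepa livers miR-33-5p was at 10.1 CPM (SD 2.25, n = 7). Its log2 fold change there was 0.45 against reference (adjusted p = 0.0758) and -0.13 against HFoleic (adjusted p = 0.968, edgeR for both), without a call.

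miR-128-3p, like miR-148a a known regulator of the low-density lipoprotein receptor, was called lower in both high-fat groups. It was at 45.1 CPM (SD 3.87, n = 8) in reference livers, 32.2 CPM (SD 8.39, n = 8) in HFoleic livers and 29.1 CPM (SD 6.60, n = 7) in HFepa livers. The log2 fold change was -0.49 (adjusted p = 0.0311) and -0.63 (adjusted p = 0.00872) against the reference group (quasi-likelihood fit in edgeR, Benjamini-Hochberg). The call in HFoleic was lost without any 1 of 8 libraries (reference 1, 4 or 5, or HFoleic 12, 13, 14, 15 or 23), whereas that in HFepa was kept without each of the 23 libraries in turn. Of the other settings, the call in HFoleic was kept with DESeq2, library totals and limma-voom alone. The call in HFepa was lost with quantile normalization, the study's own (-0.47, adjusted p = 0.109, limma), and with the term for the library number, and was kept in the rest. Among libraries 1 to 11 alone, miR-128-3p had -0.11 in HFoleic vs. reference (adjusted p = 0.703, edgeR). With the term it had 0.01 in HFepa vs. reference (adjusted p = 1, edgeR). Neither call on miR-128-3p was held in these settings, but they gave almost no calls for any miRNA. Libraries 1 to 11 alone gave 0 calls among 409 tested miRNAs. With the term, 1 of 386 was called for HFoleic and 0 of 386 for HFepa, each against the reference group. The estimates moved along with the calls, from -0.49 to -0.11 in HFoleic among libraries 1 to 11 and from -0.63 to 0.01 in HFepa with the term. The cause of these shifts was not tested.

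Markers of the tissue and of other cells were set beside the levels of the family. The 3 hepatocyte miRNAs summed to 112869 to 249564 CPM in reference libraries, 211786 to 265683 CPM in HFoleic libraries and 209631 to 256349 CPM in HFepa libraries, and none was at 0 in any library. The 5 stellate cell miRNAs summed to 23449 to 42493, 19868 to 28554 and 23478 to 30358 CPM in the same order. The 5 leukocyte miRNAs summed to 1332 to 2922, 1191 to 2000 and 1267 to 1929 CPM. These ranges overlapped between the groups. Reference library 3 held the lowest hepatocyte sum and the highest stellate cell and leukocyte sums, but also the lowest endothelial and red blood cell sums. Without reference libraries 4 and 5 no member was called in any comparison and no member changed direction. The same held without reference libraries 3, 4 and 5, which was chosen after seeing the data. The part of these cells in the levels of the family was not tested.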

How the data were processed

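Small RNA from 23 livers was sequenced with the TruSeq Small RNA kit. Per the study's methods, the authors trimmed adapters with the FASTX-Toolkit, aligned reads with Bowtie v0.12.8 through ncPRO-seq and annotated them against miRBase; build names differ between the sources (GRCm38.p6, mm9, mm10), so no coordinate of a read was used. The deposited table holds whole-number counts per mature miRNA, the authors' scaled signal values per library and group, and their log2 fold changes and p-values; only the counts were analysed. Groups came from the labels. The members and lists were chosen with earlier results of these data known.

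Levels were tested with edgeR 4.0.16 (R 4.3.3) by its quasi-likelihood test, with TMM factors, filterByExpr by group and 1 fit over the 3 groups, and p-values were adjusted by the Benjamini-Hochberg method over 386 miRNAs, which held 99.98% of all counts. The log2 ratio of the arms, with a pseudocount of 0.5, was tested with limma 3.58.1. All tests are two-sided. The split at library number 11 came from earlier results. The named correlates were the 5 highest and 3 lowest for miR-148a-3p and the 5 highest for miR-148a-5p. Alternatives were DESeq2 1.42.0, limma-voom, quantile normalization (as the study used), other factors, no filter, 2 groups alone, a term for the library number, and leaving out libraries. Libraries of a group differed by more than sampling noise (chi-square over degrees of freedom 29.5 or more). The tests were first tried on simulated counts.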

Additional observations from a re-analysis of the deposited data

Results flagged for a closer look

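In 1 of 27 sets of values (the 6 members and 3 arm ratios in each group), 1 library lay far from the rest of its group. The log2 ratio of the 3p to the 5p count of miR-148b was 4.96 in HFepa library 22, and the nearest other HFepa library had 5.22, a gap of 0.593 of the group's range. Chance alone flags about 1 in 20 such sets. Without this library the difference in HFepa vs. reference was 0.03, against -0.02 with it. The same library had the highest ratio of miR-152, at 1.87.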

How the results depend on the processing

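No member was called in any comparison, and this held in each setting tried except leaving out HFoleic library 10 (miR-148b-3p in HFoleic vs. reference) and using library totals. With a library left out in turn, the number of members called in HFoleic vs. reference ran from 0 to 1 and the log2 fold change of miR-148b-3p there from 0.15 to 0.26. With library totals in place of TMM, 1 member was called in HFepa vs. reference (miR-148a-3p, -0.32). Signs turned mostly with the library number. With a term for it, miR-148a-3p had 0.096 in HFoleic vs. reference, 0.12 in HFepa vs. reference and 0.023 between the high-fat groups. In HFepa vs. reference, miR-148b-3p then had -0.17, miR-152-3p -0.084 and the arm ratio of miR-148a 0.23, and miR-128-3p had 0.0081. miR-148a-3p had 0.10 in libraries 1 to 11 alone and 0.029 in libraries 12 to 23 alone. With quantile normalization miR-148b-3p had -0.033 in HFepa vs. reference and miR-148b-5p 0.023 in HFepa vs. HFoleic. miR-152-3p in HFepa vs. reference had -0.00025 with library totals and -0.0095 with limma-voom. Arm ratios near 0 changed sign with single libraries left out: miR-148b ran from -0.039 to 0.026 in HFoleic vs. reference, from -0.042 to 0.030 in HFepa vs. reference and from -0.044 to 0.041 between the high-fat groups, and miR-152 from -0.0067 to 0.10 in HFoleic vs. reference. The cause of these changes was not tested.

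miR-148a-5p in HFepa vs. HFoleic ran from -0.31 to -0.21 over all settings tried. Of all tested miRNAs, 48, 61 and 0 were called in the 3 comparisons, 28, 47 and 0 with DESeq2, 10, 24 and 0 with quantile normalization, and 1, 0 and 0 with the term for the library number; with single libraries left out these counts ran from 12 (reference library 5) to 53, 32 (HFepa library 22) to 66 and 0 to 1. With only 2 groups in the fit 7, 40 and 0 were called, and without reference libraries 4 and 5 it was 6, 30 and 0. No paired analysis was made, because each library was taken as 1 mouse and the labels give no pairs of mice. Depth limited the rarest member, miR-148b-5p, the most, with 93 to 184 counts a library.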
